A study of Homo sapiens with 6 samples.

Results

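Gene expression in the breast cancer line MDA-MB-453 was compared between cells labelled as SETDB1 knock-down with the hairpin shRNA-3 and control cells. The comparison rests on 2 Illumina bead arrays, 1 per arm, and covers every gene with a detection p below 0.05 on at least 1 of them. The detection p is the deposited measure of whether a probe stood above the array's negative controls. That rule gave 12053 of the 14451 genes detected on any of the series' 6 arrays. Of them, 10370 were detected on both arrays, 1059 on the shRNA-3 array only and 624 on the control array only. The gene just inside the rule had a lowest detection p of 0.0488 and the one just outside had 0.0501.

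The other 4 arrays are of MDA-MB-231, 2 labelled shRNA-1 against SETDB1 and 2 control. Total RNA of cells grown in serum-containing DMEM was used throughout, and every array carries the label batch1. Hairpin and cell line change together, so their parts in any contrast between lines cannot be told apart. The labels do not say whether replicates are separate cultures, and they give no hairpin sequence and no description of the control hairpin. With 1 array per arm, differences within MDA-MB-453 have no replicate check and carry no p-value. They are given as log2 differences of normalised intensity, shRNA-3 minus control, and a gene is called past 2-fold where that difference is 1 or more in size. A level of 1 probe is not comparable with that of another probe.

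SETDB1 is a histone methyltransferase that places the repressive H3K9me3 mark. The co-repressor TRIM28, which is recruited to DNA by KRAB zinc finger proteins, brings it to retroelements and to clusters of zinc finger genes. MDA-MB-453 cells are luminal-like and express secretory genes such as those of apocrine breast tissue.

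The arrays carried the marker profile of MDA-MB-453. Of 21 marker genes of the line, 20 were detected on both arrays, among them FOXA1 at 13.16 and 13.43 and SPDEF at 12.01 and 12.48 on the control and shRNA-3 arrays. ESRP2 was detected on neither. Of 15 marker genes of MDA-MB-231, 4 were detected on each array, and AXL and ANXA1 were detected on neither. Of 11 leukocyte, endothelial and fibroblast markers, the control array detected 1 and the shRNA-3 array 3, with log2 summed levels of 8.32 and 8.44. COL1A1 was detected on both arrays, at 6.58 and 6.76. COL1A2 and the myeloid marker CD14 were detected on the shRNA-3 array only, at 4.91 and 5.22. PTPRC, PECAM1 and DCN were among the 8 detected on neither. The shRNA-3 array was the brighter before normalisation, with a median intensity of 60.4 against 47.9, and it detected 20344 probes against 19230. The part of that difference in the results below was not tested.

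The SETDB1 probe stood at 8.97 on the control array and 8.72 on the shRNA-3 array, a difference of -0.25 or 1.19-fold lower, and of 0.12 when arrays were scaled only to a common median. In MDA-MB-231 the same probe differed by -0.16 between the shRNA-1 and control arrays (limma adjusted p = 0.515). The arrays are therefore called by their labels. On the MDA-MB-453 arrays BMI1, a Polycomb group protein that the study's title names, stood at 10.58 and 9.45, which is 2.20-fold lower. With arrays scaled only to a common median its difference was -0.83, under 2-fold. MYC, also in the title, stood at 9.85 and 9.45 on its brighter probe, with a difference of -0.05 under that scaling.

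The arrays differed by 2-fold or more at 426 genes, in equal numbers each way. There were 213 genes higher on the shRNA-3 array (1.77% of those compared) and 213 lower (1.77%). At 4-fold or more the counts were 24 higher and 6 lower, and at 8-fold or more 7 higher and 1 lower, so the extremes lay on the higher side. Raising the dim array to its detection floor left 177 and 184 genes past 2-fold. The median difference was 0.0289, and the 5th and 95th percentiles were -0.74 and 0.75. With arrays scaled to a common median instead of quantile-normalized, the split was 705 higher and 53 lower, and the median of all genes was 0.32. Across genes the arrays correlated at 0.977. For scale, replicate arrays of MDA-MB-231 were 2-fold or more apart at 0.674% of detected genes in the shRNA-1 arm and at 0.21% in the control arm, against 3.53% here. The SD of the difference was 0.352 and 0.294 between those replicates and 0.481 between the MDA-MB-453 arrays. Of 106 genes past 2-fold with more than 1 detected probe, 91 had all probes on the same side, and 0 genes had probes past 2-fold in opposite directions.

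**Figure D1:**
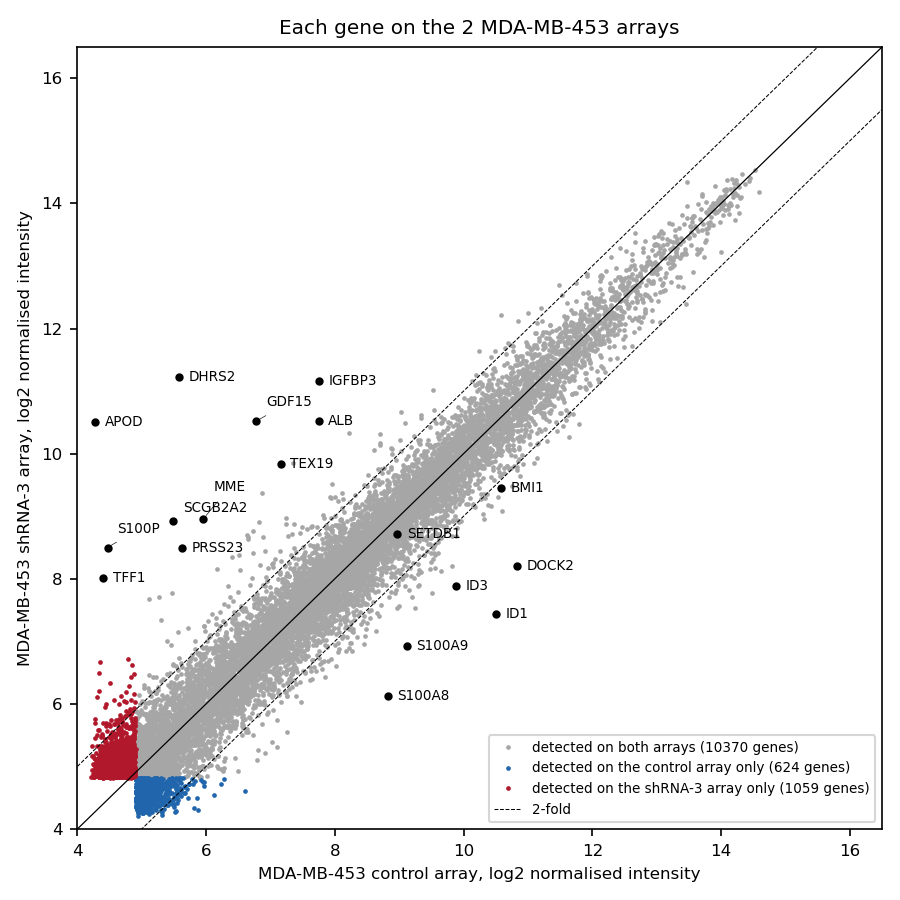
Log2 normalised intensity of each gene on the control array (horizontal) and the shRNA-3 array (vertical), 1 array each; grey points are the 10370 genes detected on both arrays, blue and red points those detected on 1 only, and dashed lines mark 2-fold. DHRS2, APOD and IGFBP3 stand far above the diagonal, ID1, S100A8 and DOCK2 below it, and SETDB1 close to it.

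DHRS2 and APOD had the largest differences on the higher side. DHRS2, a short-chain dehydrogenase, stood at 5.58 on the control array and 11.22 on the shRNA-3 array, 49.9-fold higher. Its second probe gave a log2 difference of 4.35. APOD, the lipid-binding apolipoprotein D known as a secreted product of apocrine breast tissue, was not detected on the control array, at 4.28, and stood at 10.51 on the other. It was at least 48.5-fold higher. Such a bound sets the dim array at the lowest value among its detected probes, 4.91 for the control array and 4.82 for the shRNA-3 array.

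GDF15, a stress-induced cytokine of the TGF-beta family, stood at 6.78 and 10.52, a 13.4-fold difference. S100P, a calcium-binding protein, was not detected at 4.47 and stood at 8.50, at least 12.0-fold higher. IGFBP3, which binds insulin-like growth factors in the extracellular space, stood at 7.76 and 11.16, and its probes gave differences of 3.39 and 3.25. These 5 genes were each over 10-fold higher on the shRNA-3 array, and DHRS2, GDF15 and IGFBP3 were already detected in the control.

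MME, the cell-surface peptidase neprilysin, stood at 5.96 and 8.96 (7.97-fold). PRSS23, a secreted serine protease, stood at 5.63 and 8.49 (7.26-fold). VCAN, a matrix proteoglycan, stood at 5.11 and 7.68, near the detection floor on the control array. ABCC5, an exporter of cyclic nucleotides, had 3 detected probes with differences of 2.51, 2.37 and 0.69, all higher on the shRNA-3 array. ABCC8, the sulfonylurea receptor of the ATP-sensitive potassium channel, stood at 5.26 and 7.70. AFF3, a nuclear protein of the super elongation complex family, was not detected in the control and was at least 3.39-fold higher.

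ALB, the gene of serum albumin, stood at 7.75 and 10.52 (6.80-fold), with a difference of 2.85 on its other probe. Its neighbour AFP, the fetal relative of albumin, stood at 5.39 and 7.01, a difference of 1.62. AFP was named after its value was seen, as the next measured gene in RefSeq order. The other hepatocyte markers did not accompany them: of 5 on the array, APOA1, APOA2 and FGB were detected on neither array, TTR on the control array only at 5.25, and SERPINA1 on the shRNA-3 array only at 5.01. Their log2 summed levels were 6.99 and 6.96. TEX19, a germline gene that in mouse restrains transposable elements, stood at 7.16 and 9.83 (6.37-fold). Its nearest measured neighbours SECTM1 and OGFOD3 differed by 0.13 and 0.00, so the difference at TEX19 was not shared by the genes beside it. TEX19 was the 1 gene past 2-fold among 12 measured cancer-testis and germline genes (8.33%, against 1.77% of all genes), and a share of 1 member says nothing of the list.

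On the lower side ID1, an inhibitor of basic helix-loop-helix transcription factors and a BMP target, stood at 10.50 on the control array and 7.44 on the shRNA-3 array, 8.38-fold lower. Its dimmer second probe gave -0.93. ID3, of the same family, stood at 9.88 and 7.88, 4.02-fold lower. S100A8 and S100A9, which pair as the antimicrobial protein calprotectin, stood at 8.82 and 6.12 and at 9.12 and 6.92. They are neighbours on chromosome 1, while S100A6, S100A14, S100A13 and S100A10 nearby differed by -0.13, 0.10, 0.15 and -0.12. S100A16 and S100A4, also nearby, differed by 0.64 and 0.34, with S100A4 detected on the shRNA-3 array only. Past 2-fold among 11 measured members of the S100 family were S100A8 and S100A9 on the lower side and S100P on the higher side. S100A8 and S100A9 are abundant in myeloid cells, where CD14 is also expressed. CD14 was detected on the shRNA-3 array only, at 5.22 against 4.67, and PTPRC on neither array. The part of such cells in the difference was not tested.

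DOCK2, a Rac activator best known from blood cells, stood at 10.83 and 8.20, 6.22-fold lower. BBOX1, which makes the last step of carnitine synthesis, stood at 7.10 and 5.32. TMSB15A, an actin-binding thymosin, stood at 9.52 and 7.78. RPL36A, a ribosomal protein gene, stood at 7.26 and 5.55, although its dimmer second probe, near the detection floor, gave -0.17. MRPL47, of the mitochondrial ribosome, stood at 9.83 and 8.21. SEMA6A, a semaphorin, the palmitoyltransferase ZDHHC20 and the amino acid transporters SLC36A4 and SLC16A10 were 3.23-fold, 3.20-fold, 3.11-fold and 2.93-fold lower. CAB39L and MLF1 were 3.30-fold and 2.95-fold lower, and the other CAB39L probes gave -1.25 and -0.23. CARD10, a scaffold of NF-kB signalling, was detected at 6.61 on the control array only and was at least 3.45-fold lower. The colorectal tumour suppressor candidate MCC, the testis bromodomain protein BRDT, the guidance ligand SLIT3, the lipid phosphatase PLPP1 and ZNF121 were also detected on the control array only, at least 2.76-fold, 2.65-fold, 2.45-fold, 2.21-fold and 2.21-fold lower.

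**Figure D2:**
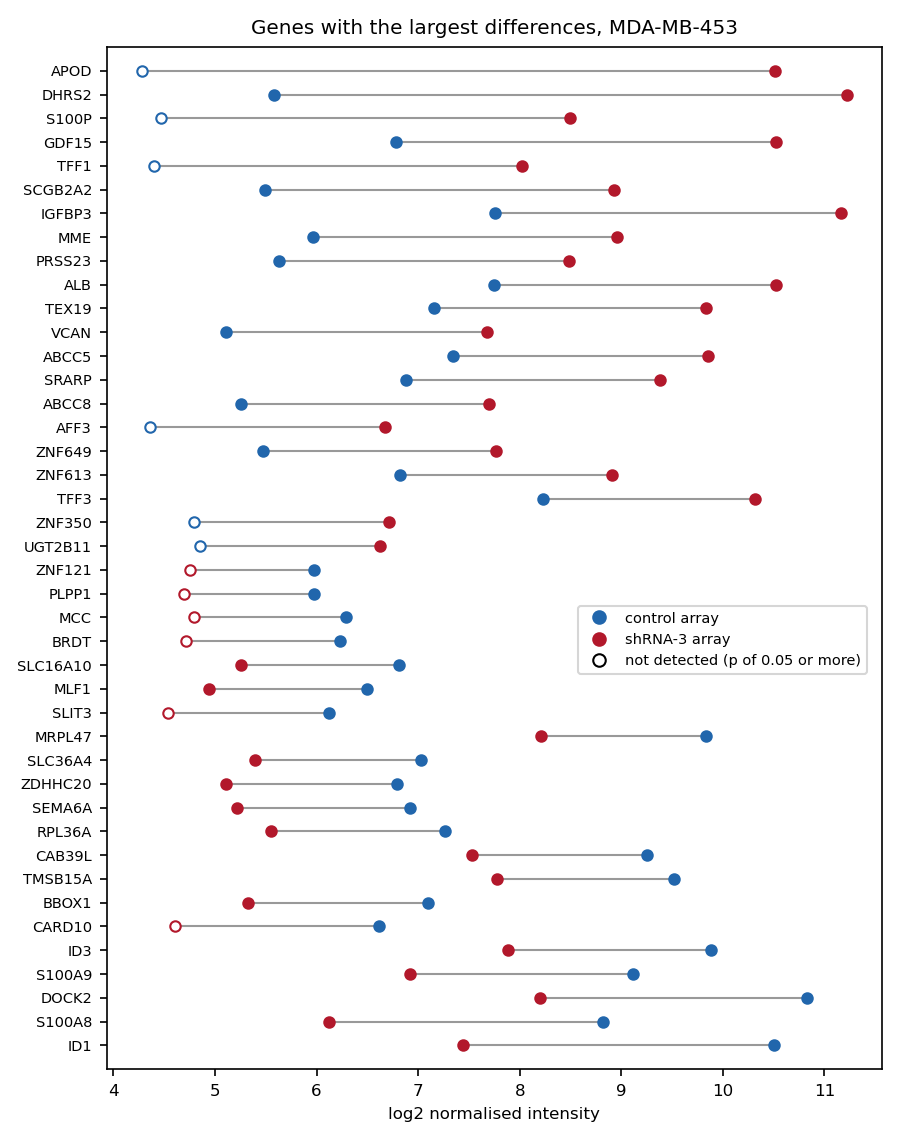
Log2 normalised intensity of the genes with the largest differences on the control array (blue) and the shRNA-3 array (red), 1 array each, with open circles where the gene was not detected. APOD goes from 4.28 to 10.51 at the top, and ID1 from 10.50 to 7.44 at the bottom.

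Luminal, apocrine and secretory mammary genes were among the largest differences. Cells of this kind express genes of apocrine secretion, steroid glucuronidation and luminal identity. The gene lists, here and elsewhere, were chosen with earlier results of these data known. Their shares beside that of all genes are therefore descriptive only. Of 36 measured genes on the luminal and apocrine list, 7 were higher by 2-fold or more (19.4%, against 1.77% of all genes). By the same measure 1 was lower, and the list's median difference was 0.349. Of the 7, 3 were detected on both arrays, and the others counted as measured only through the shRNA-3 array. Among the 31 members detected on both arrays 3 were higher by 2-fold or more, against 151 of 10370 genes. SCGB2A2, the secretoglobin mammaglobin A, stood at 5.49 and 8.93 (10.9-fold). SCGB1D2, the secretoglobin that pairs with mammaglobin, was not detected at 4.43 and stood at 5.96, at least 2.07-fold higher. UGT2B11 and UGT2B28, related enzymes that conjugate steroids, were not detected in the control and were at least 3.27-fold and 2.29-fold higher, and their sequences are so alike that a probe may bind both transcripts. TFF3, a mucosal trefoil peptide, stood at 8.23 and 10.32 (4.28-fold), and DHRS2 and APOD complete the 7.

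The factors that define the luminal state differed less. GATA3 stood at 10.72 and 11.18, and XBP1 stood at 14.58 and 14.18. FKBP5 and TMPRSS2, known steroid-responsive genes, stood at 9.30 and 9.08 and at 7.88 and 7.98. These 4 genes and FOXA1 were picked for comparison after their values were seen. CLDN8, a tight junction protein, was the 1 member lower by 2-fold or more, at 9.19 and 8.05. The steroid receptor element, searched on both strands as GNACA, any 3 bases and TGTNC, was in 0 of the 34 promoters of this list and 0 of the 240 of genes higher by 2-fold or more, against 0.281% of promoters of measured genes. No match says only that these letters are not in these windows.

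Of 15 measured secretory mammary genes 4 were higher (26.7%, against 1.77% of all genes) and 1 lower (6.67%) by 2-fold or more. Their median was 0.664. Of the 15, 11 were detected on both arrays. SCGB1D2 and TFF1, among the 4, counted as measured only through the shRNA-3 array, which raises the share. This list shares SCGB2A2, SCGB1D2 and TFF3 with the luminal and apocrine list. TFF1, a trefoil peptide and oestrogen-responsive gene, was not detected at 4.40 and stood at 8.02, at least 8.68-fold higher. MUCL1, a small breast mucin, was the member that was lower, at 13.45 and 12.39. SRARP, a nuclear partner of steroid receptors that is on neither list, stood at 6.88 and 9.38 (5.66-fold). Among 22 measured genes of retinoid metabolism and short-chain dehydrogenases 3 were higher (13.6%, against 1.77% of all genes) and 0 lower. They were DHRS2, the retinaldehyde reductase DHRS3 at 6.52 and 8.38, and DHRSX, at least 2.18-fold higher.

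Genes of the integrated stress response were nearly all higher on the shRNA-3 array. This pathway phosphorylates the initiation factor eIF2, which favours translation of the transcription factor ATF4, and ATF4 switches on amino acid synthesis, amino acid transport and tRNA charging. Of 42 measured genes 39 were higher in any amount, against 52.7% of all genes. By 2-fold or more 10 were higher (23.8%, against 1.77% of all genes) and 0 lower, and the median was 0.695. Between MDA-MB-231 replicates, shRNA-1 and then control, the median of the same list was -0.0121 and -0.0294. It lay near 0 where the label did not differ. For other lists these medians were 0.151 and 0.0502 (interferon-stimulated), 0.132 and -0.0268 (G1/S) and 0.0895 and -0.0859 (ZNF). They were 0.0114 and -0.0255 for the luminal and apocrine list and 0.038 and -0.00294 for ribosome biogenesis. The transcript of ATF4 itself stood at 13.85 and 13.97.

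SARS1, the seryl-tRNA synthetase, stood at 9.52 and 11.02 (2.82-fold). EPRS1, the glutamyl-prolyl-tRNA synthetase, was higher by 1.25, at 12.24 on the shRNA-3 array (2.37-fold). STC2, a secreted stanniocalcin, stood at 7.93 and 9.31. GDF15 is the other member named by size. The remaining 6 past 2-fold, named after their values were seen, were the stress protein NUPR1 (1.22), the asparagine synthetase ASNS (1.16), the gluconeogenic enzyme PCK2 (1.12), the tRNA exporter XPOT (1.04), the threonyl-tRNA synthetase TARS1 (1.03) and the glutathione-degrading CHAC1 (1.02). DDIT3, the factor CHOP, stood at 7.61 and 8.54, and ATF3 at 6.91 and 7.89, just under 2-fold. The 3 members that were lower were ATF5 at -0.74, JDP2 at -0.31 and MTHFD2 at -0.09.

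The chaperone side of the stress response was less shifted. Of 37 measured endoplasmic reticulum chaperone genes 29 were higher in any amount, against 52.7% of all genes, with a list median of 0.20. By 2-fold or more 1 was higher (2.7%, against 1.77% of all genes). HSPA5, the chaperone BiP, stood at 6.84 and 8.22 (2.61-fold). SEL1L, of the degradation complex of the endoplasmic reticulum, stood at 5.26 and 6.08.

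Promoters of 4 stress response genes show the composite element that ATF4 and C/EBP factors are known to bind. They are 300-base windows from RefSeq, GRCh38.p14, from 250 bases before the transcription start to 50 after, written 5′ to 3′ on the gene's strand. Capitals mark TGATGNAA on either strand. ATF3 is at chr1:212565157-212565456 (+ strand), ASNS at chr7:97872359-97872658 (- strand), AARS1 at chr16:70289457-70289756 (- strand) and TARS1 at chr5:33440715-33441014 (+ strand), and all but ATF3 were chosen after their values were seen.
ATF3: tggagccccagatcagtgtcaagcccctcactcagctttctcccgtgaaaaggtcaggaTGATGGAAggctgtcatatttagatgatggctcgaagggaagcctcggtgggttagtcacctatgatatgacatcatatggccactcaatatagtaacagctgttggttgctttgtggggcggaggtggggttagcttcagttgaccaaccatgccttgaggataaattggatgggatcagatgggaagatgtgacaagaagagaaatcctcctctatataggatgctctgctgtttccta
ASNS: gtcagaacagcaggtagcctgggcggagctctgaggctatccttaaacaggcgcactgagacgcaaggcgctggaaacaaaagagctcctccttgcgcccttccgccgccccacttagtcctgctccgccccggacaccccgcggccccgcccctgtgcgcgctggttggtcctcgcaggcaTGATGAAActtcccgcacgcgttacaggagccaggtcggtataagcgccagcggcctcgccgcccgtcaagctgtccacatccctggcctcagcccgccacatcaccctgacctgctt
AARS1: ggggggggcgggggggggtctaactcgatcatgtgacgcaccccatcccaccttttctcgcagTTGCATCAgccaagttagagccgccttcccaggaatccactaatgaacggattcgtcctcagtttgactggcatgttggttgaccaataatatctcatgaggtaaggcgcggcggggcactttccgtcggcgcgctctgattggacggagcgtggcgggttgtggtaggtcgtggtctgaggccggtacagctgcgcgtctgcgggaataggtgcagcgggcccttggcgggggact
TARS1: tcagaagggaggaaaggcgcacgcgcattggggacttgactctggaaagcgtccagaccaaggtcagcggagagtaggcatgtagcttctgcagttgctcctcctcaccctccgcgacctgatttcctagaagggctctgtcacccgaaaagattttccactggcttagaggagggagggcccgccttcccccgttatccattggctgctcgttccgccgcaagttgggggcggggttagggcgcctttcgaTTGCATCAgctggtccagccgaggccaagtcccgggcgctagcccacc
The element was found in 12 of the 58 promoters of this list (20.7%), against 2.09% of the promoters of measured genes and 3.62% of all RefSeq promoters. Of the 35 listed genes with a promoter in the table, the 12 with the element had a median difference of 0.889 and the 23 without it 0.486, and 11 and 21 of them were higher. Past 2-fold, the shares were close, at 25% and 26.1%. Among all measured genes 4.81% of those with the element and 1.68% of those without it were higher by 2-fold or more. A match in these letters is a description of the window and no evidence of binding.

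**Figure D3:**
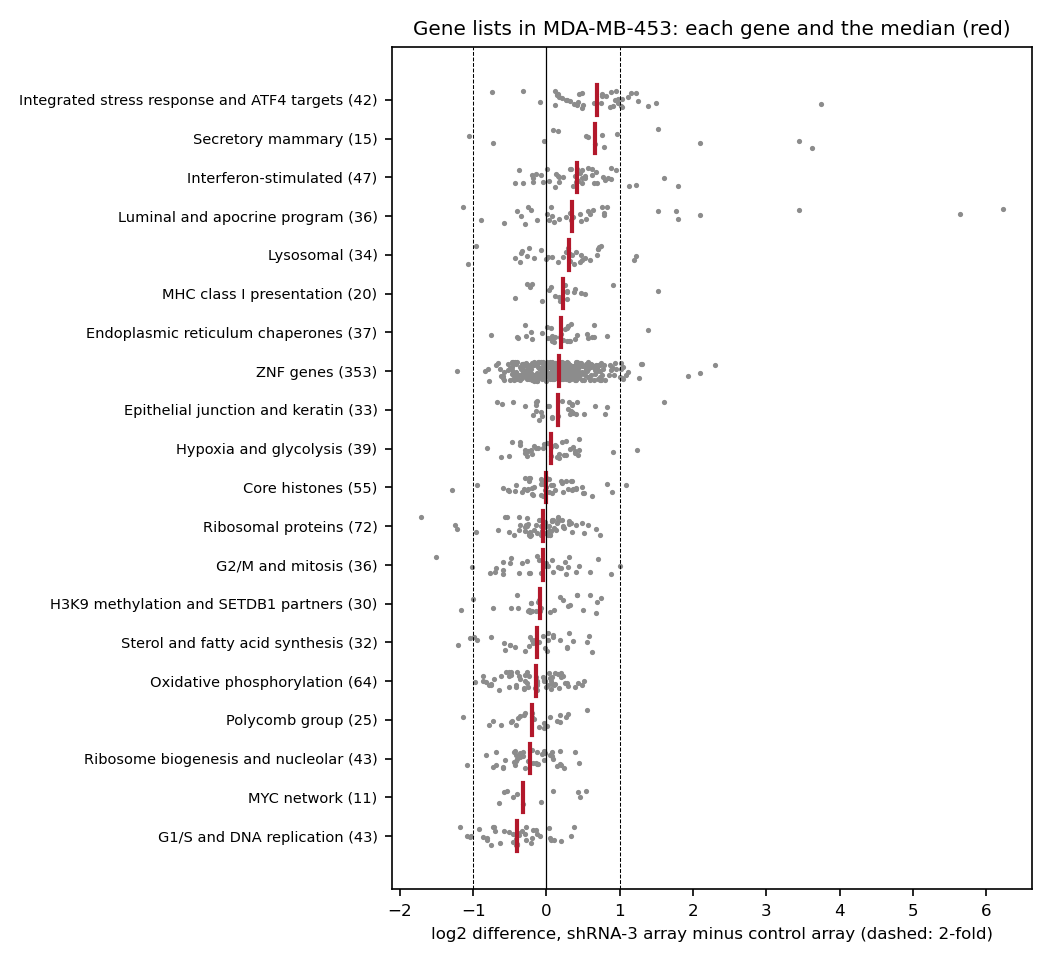
Log2 difference between the shRNA-3 and control arrays for each measured gene of 20 lists (grey points) with the list's median (red bar), dashed lines at 2-fold and the number of genes in brackets. The stress response list has its median at 0.695 with few genes below 0, and the G1/S list is at the other end at -0.408.

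Interferon-stimulated genes leaned to the higher side by small amounts. These genes are switched on by STAT and IRF factors after interferon or nucleic acid sensing. Of 47 measured genes 38 were higher in any amount, against 52.7% of all genes, and the list's median was 0.414. By 2-fold or more 4 were higher (8.51%, against 1.77% of all genes) and 0 lower. The count past 2-fold was 2 with an offset of 50 in the background correction and 10 under median scaling. IFI27, a mitochondrial interferon-induced protein, stood at 6.88 and 8.67 (3.47-fold). OAS2, an oligoadenylate synthetase, stood at 7.57 and 8.79 (2.33-fold). IFIT2, which restrains viral translation, stood at 6.15 and 7.28 (2.19-fold). DDX60, a helicase of RNA sensing, was not detected at 4.89 and stood at 6.49, at least 2.99-fold higher. Commonly used members did not all follow: BST2 stood at 11.54 on both arrays and IFI44L at 5.38 and 4.96, both picked after their values were seen. Among 20 measured genes of MHC class I presentation HLA-B, at 6.92 and 8.45, was the 1 past 2-fold. HLA genes are near-identical, so which of them its probe measures is uncertain.

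The promoters of IFI27 and DDX60 carry the interferon-stimulated response element, searched as GAAA, any 2 bases and GAAA on either strand, in capitals below. IFI27 is at chr14:94110486-94110785 (+ strand) and DDX60 at chr4:168318703-168319002 (- strand).
IFI27: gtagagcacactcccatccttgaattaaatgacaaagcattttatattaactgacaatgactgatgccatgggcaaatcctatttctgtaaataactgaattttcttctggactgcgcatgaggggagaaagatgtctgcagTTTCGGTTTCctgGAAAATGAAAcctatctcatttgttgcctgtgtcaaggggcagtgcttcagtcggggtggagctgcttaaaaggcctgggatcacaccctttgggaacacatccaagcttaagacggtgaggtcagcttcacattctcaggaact
DDX60: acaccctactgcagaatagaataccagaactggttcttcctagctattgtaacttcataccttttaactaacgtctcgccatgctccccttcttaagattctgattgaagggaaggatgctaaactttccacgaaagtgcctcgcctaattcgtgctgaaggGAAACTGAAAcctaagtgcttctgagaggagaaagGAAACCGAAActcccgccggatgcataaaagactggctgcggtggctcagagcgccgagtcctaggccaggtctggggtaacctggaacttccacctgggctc
The element stood in 32 of 54 promoters of interferon-stimulated genes (59.3%) and in 2.89% of promoters of measured genes. Within the list, the 27 genes with it had a median difference of 0.387 and the 12 without it 0.508. Past 2-fold on the higher side the shares went the other way, at 7.41% and 0%. A match is a description of the window only.

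Replication genes lay on the lower side. The list of G1/S and DNA replication holds genes that supply nucleotides and the replication fork in S phase. Of its 43 measured genes 36 were lower in any amount, against 5697 of all 12053 genes. By 2-fold or more 4 were lower (9.30%, against 1.77% of all genes) and 0 higher, and the median was -0.408. Under median scaling 28 of the 43 were lower in any amount, against 2863 of all 12053 genes, and 0 by 2-fold. The list's median was then -0.07 where all genes had 0.32. POLE2, a subunit of DNA polymerase epsilon, stood at 9.56 and 8.37 (2.27-fold lower). PRIM1, the primase, stood at 9.89 and 8.80. RRM2, a subunit of ribonucleotide reductase, stood at 8.45 and 7.40. CCNE1, the G1/S cyclin, stood at 7.54 and 6.51, although its other probe gave 0.58 near the detection floor. All 4 were thus lower by a little over 2-fold.

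Genes of G2/M and mitosis did not share a direction. Of 36 measured genes 1 was higher (2.78%) and 2 lower (5.56%) by 2-fold or more, against 1.77% of all genes each way. Their median was -0.05. CDK1, the mitotic kinase, stood at 10.60 and 9.09 (2.84-fold lower), with a similar difference of -1.62 on its other probe. CCNA2, the cyclin of S phase and G2, stood at 10.37 and 9.36. TOP2A, the topoisomerase of mitotic chromosomes, stood at 9.03 and 10.04, on the higher side.

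The POLE2 promoter carries an E2F-type sequence, TTTNNCGC matched once on each strand and marked in capitals, at chr14:49688165-49688464 (- strand).
POLE2: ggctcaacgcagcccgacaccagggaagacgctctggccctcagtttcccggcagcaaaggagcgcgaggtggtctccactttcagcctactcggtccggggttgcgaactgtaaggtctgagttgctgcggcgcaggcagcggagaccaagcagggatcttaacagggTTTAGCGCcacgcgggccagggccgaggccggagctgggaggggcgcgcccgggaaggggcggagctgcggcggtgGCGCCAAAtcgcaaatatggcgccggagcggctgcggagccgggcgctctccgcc
Such a sequence stood in 46.9% of the promoters of the replication list and 9.66% of those of measured genes. Members with it had a median of -0.372 (23 genes) and members without it -0.405 (16 genes).

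Among 43 measured genes of ribosome biogenesis 32 were lower in any amount, against 5697 of all 12053 genes. The list's median was -0.219, which turned to 0.12 under median scaling where all genes had 0.32. By 2-fold or more 1 gene was lower (2.33%, against 1.77% of all genes). BOP1, which processes ribosomal RNA precursors, was that gene, at 11.45 and 10.37. An E-box, CACGTG, the sequence that MYC binds with MAX, stood in 36.6% of the promoters of this list and in 9.33% of those of measured genes, with medians of -0.219 for the 15 genes with it and -0.155 for the 20 without. Of the 11 measured genes of the MYC network itself 0 were past 2-fold, with MYCN at 8.48 and 7.84 and the MYC antagonist MXD4 at 10.28 and 10.82. Among 72 ribosomal protein genes 0 were higher and 3 lower by 2-fold or more (4.17%, against 1.77% of all genes). These were RPL36A, RPL34 and RPL7. Processed copies of these genes are common in the genome, so these 3 probes may also bind their transcripts.

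Chromatin genes related to SETDB1 were compared next. Of 30 measured genes of H3K9 methylation and SETDB1 partners 0 were higher and 2 lower by 2-fold or more (6.67%, against 1.77% of all genes), with a median of -0.09. Under median scaling 1 was higher and 0 lower, and the median turned to 0.15 where all genes had 0.32. CBX3, the HP1 gamma reader of H3K9 methylation, stood at 9.30 and 8.14 (2.24-fold lower). CHAF1B, of the chromatin assembly factor that acts at replication forks, stood at 9.39 and 8.38. TRIM28 stood at 9.58 and 9.20 and ATF7IP, the binding partner that stabilises SETDB1, at 5.41 and 5.31, both picked after their values were seen. Of 25 Polycomb genes BMI1 was the 1 past 2-fold (4%), and under median scaling 0 were. RYBP, a partner of the same complex, stood at 10.78 and 10.05.

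Zinc finger genes, a known class of SETDB1 target, were more often higher than lower. Of 353 measured ZNF genes 14 were higher by 2-fold or more (3.97%, against 1.77% of all genes) and 1 lower, with a median of 0.17, and 8 of the 14 lay on chromosome 19. With no background correction 5 were higher, and under median scaling 30. The 165 ZNF genes of chromosome 19 had a median of 0.275, the 188 on other chromosomes 0.113 and the 704 other genes of chromosome 19 0.0357. Of the 14 ZNF genes, 6 were detected on the shRNA-3 array only.

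A run of 10 measured ZNF genes next to each other on chromosome 19, from ZNF577 to ZNF836, held 5 of the 14. It was singled out after the values were seen. ZNF649, a transcriptional repressor, stood at 5.47 and 7.77 (4.91-fold). Its neighbour ZNF613 stood at 6.82 and 8.91 (4.27-fold). ZNF350, a partner of BRCA1, was not detected at 4.79 and stood at 6.71, at least 3.49-fold higher. ZNF615, the next gene, stood at 7.39 and 8.43 and ZNF616 at 6.71 and 8.02, while ZNF614 and ZNF432 between them stood at 7.15 and 7.11 and at 5.54 and 5.33. The differences in this run were thus not uniform, and the other genes of the plotted stretch stayed under 2-fold except TPM3P9 at -1.06. In MDA-MB-231 the run had a median of 0.596, against 0.864 here, with other members leading it, ZNF841 at 1.91 and ZNF432 at 1.43. Away from the run, ZNF91, which represses SVA retroelements, stood at 6.03 and 7.33 (2.45-fold).

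**Figure D4:**
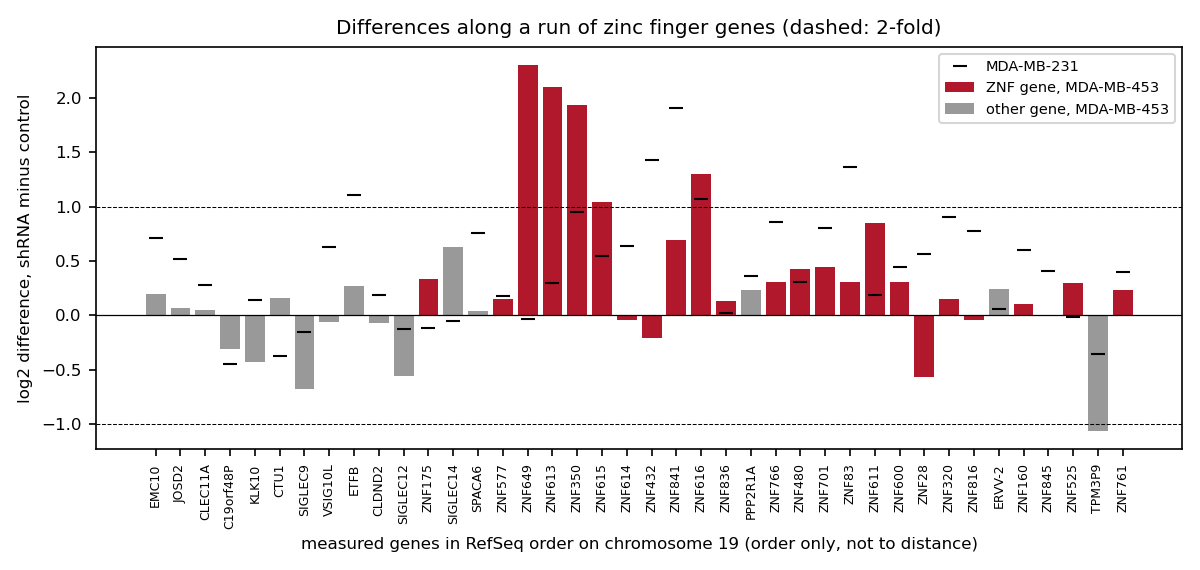
Log2 difference, shRNA-3 minus control, of measured genes in RefSeq order along a stretch of chromosome 19 in MDA-MB-453 (bars, ZNF genes in red, 1 array each) and in MDA-MB-231 (black dashes, 2 arrays each). ZNF649, ZNF613 and ZNF350 stand at 2.30, 2.10 and 1.93 in MDA-MB-453, next to ZNF614 at -0.04.

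The design allows a test of whether a difference in MDA-MB-453 departs from that in MDA-MB-231. It takes its spread from the MDA-MB-231 replicates and assumes that the MDA-MB-453 arrays vary like them. The MDA-MB-231 arms differed in markers of cell identity too. SPDEF stood at 4.33 and 4.63 on their control arrays and at 9.45 and 9.32 on their shRNA-1 arrays. FOXA1 stood at 8.0 and 8.52 and at 4.43 and 4.55, S100A4 at 6.1 and 5.39 and at 14.48 and 14.36, and CD14 at 6.6 and 6.19 and at 10.46 and 10.42. AXL and VIM stood level, AXL at 12.42 and 12.62 and at 12.4 and 12.53. An interaction therefore sets MDA-MB-453 against arms that differ in these genes, and their part in it was not tested. Of the 14451 genes in the test, 12053 were detected in MDA-MB-453 and 13584 in MDA-MB-231. For a gene detected in 1 line only, the interaction sets that line's difference against background. Of 14451 genes, 1677 (11.6%) differed between the lines at a limma adjusted p below 0.05, with 768 more positive in MDA-MB-453 (5.31%) and 909 more negative (6.29%). With 1 MDA-MB-231 control array left out the counts were 191 and 346 (without replicate 2) and 214 and 395 (without replicate 1). Of the 42 genes with the largest measured differences or bounds in MDA-MB-453, 33 passed. They were chosen by that difference, which is 1 of the terms tested, so this count is no result about the lines. Of the 33, 14 were detected on no MDA-MB-231 array, and their interactions set a difference in MDA-MB-453 against background.

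Of these 42, ID1 had the largest interaction, with the lines on opposite sides. It rose by 3.63 in MDA-MB-231 (limma adjusted p = 2.12e-06) and was lower by 3.07 in MDA-MB-453, an interaction of -6.70 (adjusted p = 1.45e-05). ID3 and DOCK2 showed the same opposition, with differences of 2.32 and 2.21 in MDA-MB-231 and interactions of -4.33 (limma adjusted p = 0.000113) and -4.85 (adjusted p = 5.37e-05). SEMA6A was detected on the shRNA-1 arrays of MDA-MB-231 but on neither control array there, at least 1.80-fold higher, with an interaction of -2.88 on the measured values (limma adjusted p = 0.00132).

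Several luminal and secretory genes were not measurable in MDA-MB-231. APOD, SCGB2A2 and TFF1 were detected on no array of that line, so it gives no difference for them. Their interactions on the measured values were 6.07, 3.41 and 3.52 (limma adjusted p = 2.22e-05, 0.000234 and 0.000225). For APOD and TFF1 the MDA-MB-453 control was not detected either, and the bounds there were 5.60 and 3.12 on the log2 scale. DHRS2, detected on 1 of the 2 control arrays of MDA-MB-231, rose by 1.06 there (limma adjusted p = 0.00736), with an interaction of 4.58 (adjusted p = 0.000269). TFF3 was detected on neither control array there and was at least 1.18-fold higher, with an interaction of 1.49 (limma adjusted p = 0.0139).

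Other genes were on the same side in both lines. TEX19 rose by 2.93 in MDA-MB-231 (limma adjusted p = 6.41e-06), with an interaction of -0.25 ± 0.29 (SE, adjusted p = 0.615). GDF15 was detected on neither control array of MDA-MB-231 and was at least 13.3-fold higher there (limma adjusted p = 1.61e-06 on the measured values), with an interaction of -0.19 ± 0.29 (SE, adjusted p = 0.715). BMI1, which is not among the 42, fell by 1.18 there (limma adjusted p = 0.0017), with an interaction of 0.05 ± 0.32 (SE, adjusted p = 0.943). S100P was also higher in both lines but differed between them. It was detected on no control array of either and was at least 30.0-fold higher in MDA-MB-231, with an interaction of -1.40 on the measured values (limma adjusted p = 0.0178). A p that misses the threshold does not show that the lines respond alike.

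For the gene lists the 2 lines are given side by side. The stress response list had a median of 0.695 in MDA-MB-453 and -0.034 in MDA-MB-231, and SARS1 had an interaction of 1.98 (limma adjusted p = 0.00567). The replication list had medians of -0.408 and -0.791, the ribosome biogenesis list -0.219 and -0.827, and the interferon list 0.414 and 0.539. These differences between list medians were not tested. The other stress response genes named by size, STC2, EPRS1 and GDF15, had interactions of 1.03, 0.91 and -0.19, and their adjusted p missed 0.05. In the interferon list OAS2 had -1.22 and passed, while IFIT2 at 0.47 and DDX60 at -0.14 missed. For POLE2, CCNE1 and IFI27 the interactions were -0.07, 0.29 and 0.37 (limma adjusted p = 0.917, 0.562 and 0.607).

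**Figure D5:**
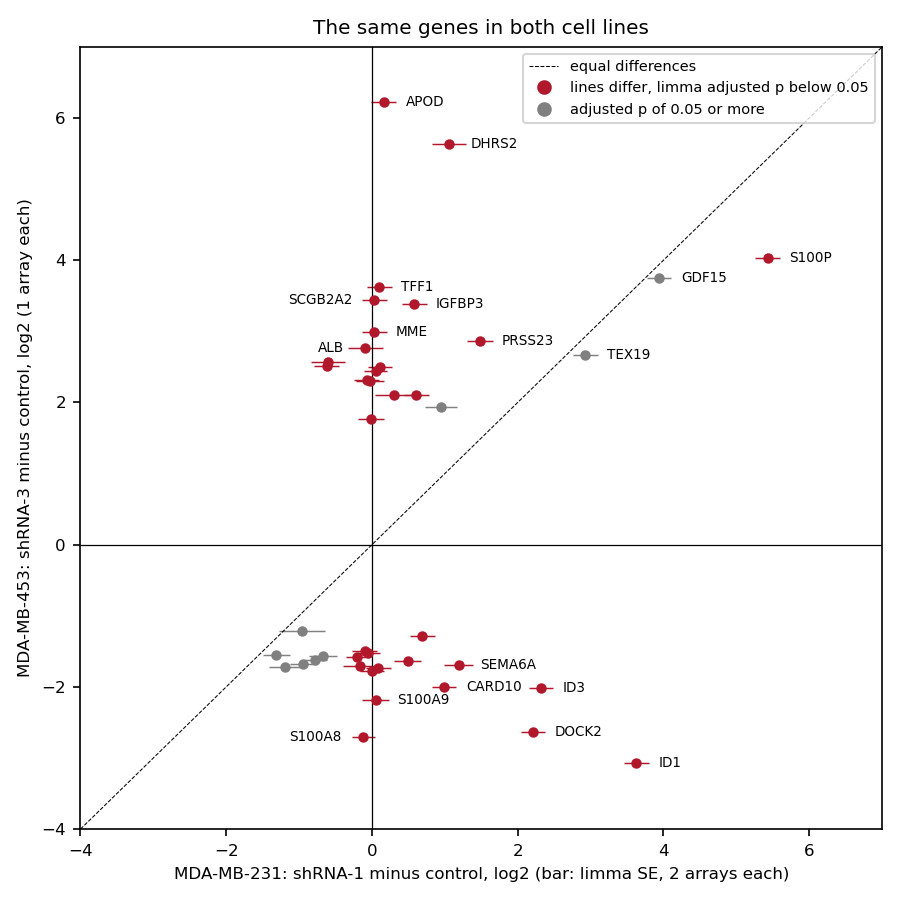
Log2 difference in MDA-MB-453 (vertical, shRNA-3 minus control, 1 array each) against that in MDA-MB-231 (horizontal, shRNA-1 minus control, 2 arrays each, bars are limma standard errors) for the 42 genes with the largest differences or bounds in MDA-MB-453. ID1, ID3, DOCK2 and SEMA6A lie at lower right, GDF15 and TEX19 near the dashed line of equal differences, and APOD and SCGB2A2, detected on no MDA-MB-231 array, near 0 on the horizontal axis.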

How the data were processed

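The authors deposited non-normalized bead array intensity values with a detection p-value per probe, and processed log2 values, per the file headers. The deposited log2 values equal quantile-normalized log2 intensities without background correction, to within 5.256e-09. The scanner software is not given in the sources used here. Symbols came from the platform's annotation in GEO, where some may be out of date: 30113 probes have 1 symbol, 8 several and 17986 none, and the last 2 kinds stay unnamed.

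Intensities were background-corrected in limma 3.58.1 (R 4.3.3) with normexp and negative controls inferred from detection p-values, offset 16, then put on a log2 scale and quantile-normalized over the 6 arrays. A gene is represented by its brightest detected probe over the MDA-MB-453 arrays. For a gene not detected there, the contrast between lines used its brightest detected probe over all 6 arrays. The contrast between lines was fitted with lmFit and eBayes (4 group means, 2 residual degrees of freedom, prior 6.5, two-sided, Benjamini-Hochberg over 14451 genes). It was also run on simulated data that gave the MDA-MB-453 arrays the spread of the MDA-MB-231 replicates. That run cannot check whether the lines vary alike.

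Named genes are SETDB1, BMI1 and MYC, the 15 largest differences each way among genes detected on both arrays, the 6 largest bounds each way, and per list up to 4 members with the largest differences plus members with a bound of 2-fold. The members and the 37 lists were chosen with earlier results of these data known. RefSeq promoters matched 9625 of the 12053 genes. MDA-MB-231 values share only the normalization. In bulk RNA, fewer cells of a kind and less RNA per cell cannot be told apart. The alternatives were the background, offset, scaling, detection threshold, probe rule, authors' values, replicate block and left-out replicates. The detection floor as a bound was chosen after seeing the data.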

Additional observations from a re-analysis of the deposited data

Results flagged for a closer look

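The genes below had an effect in MDA-MB-453 that differed from the one in MDA-MB-231 (limma interaction, adjusted p below 0.05). Each value is the MDA-MB-453 difference minus the MDA-MB-231 difference on the log2 scale, and the MDA-MB-453 part rests on 1 array per arm. The genes were chosen by their difference in MDA-MB-453, and 14 of the 33 were detected on no MDA-MB-231 array: APOD, TFF1, SCGB2A2, SRARP, MME, ABCC8, ZNF649, S100A8, S100A9, TMSB15A, BBOX1, BRDT, MCC and SLIT3. Among luminal and secretory genes the interaction was 6.07 for APOD, 4.58 for DHRS2, 3.52 for TFF1, 3.41 for SCGB2A2, 2.39 for SRARP, 1.78 for UGT2B11 and 1.49 for TFF3. Among surface, matrix and secreted proteins it was 3.16 for VCAN, 2.96 for MME, 2.85 for ALB, 2.82 for IGFBP3 and 1.38 for PRSS23. The transporters ABCC5 and ABCC8 had 3.13 and 2.39, and the nuclear proteins AFF3, ZNF649 and ZNF613 had 2.38, 2.32 and 1.80.

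Negative interactions were -6.70 for ID1, -4.85 for DOCK2, -4.33 for ID3, -3.0 for CARD10, -2.88 for SEMA6A, -2.58 for S100A8 and -2.24 for S100A9. They were -2.13 for SLC36A4, -1.97 for PLPP1, -1.83 for TMSB15A, -1.79 for BBOX1, -1.54 for RPL36A, -1.46 for BRDT, -1.40 for MCC, -1.40 for S100P and -1.38 for SLIT3.

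Probes without 1 gene symbol were outside every comparison above. Of 5971 such probes detected on at least 1 MDA-MB-453 array, 69 were higher by 2-fold or more (1.16%) and 104 lower (1.74%), with the extremes at 2.15 and -1.80.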

How the results depend on the processing

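All 87 named genes past 2-fold kept their direction under every alternative that gave them a value, and 64 to 87 stayed past 2-fold where all 87 had one. Counts past 2-fold were 213 higher and 213 lower. They were 112 and 97 with no background correction and with the authors' processed values, 101 and 83 with an offset of 50, and 705 and 53 under median scaling, which moved the median of all genes from 0.03 to 0.32. Relative to that median, the lists kept their sides in all settings: 0.55 to 0.73 for the stress response, 0.26 to 0.34 for the luminal and apocrine list, 0.34 to 0.40 for interferon, 0.10 to 0.15 for ZNF genes, -0.44 to -0.39 for G1/S and -0.27 to -0.20 for ribosome biogenesis. Median scaling gave 21 stress response, 11 luminal and apocrine, 10 interferon and 30 ZNF genes higher, and 0 G1/S and 0 ribosome biogenesis genes lower. With no background correction and with the authors' values 5 ZNF genes were higher and 2 G1/S genes lower; with an offset of 50, 4 ZNF and 2 interferon genes were higher and 2 G1/S genes lower. Among genes detected on both arrays 3 luminal and apocrine and 8 ZNF genes were higher, and with the detection floor 9 ZNF genes.

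Between lines, 768 genes were more positive and 909 more negative in MDA-MB-453. Median scaling gave 1981 more positive. With the replicate block the counts were 673 and 830. Leaving out 1 MDA-MB-231 array gave 191 to 1110 and 346 to 1138, and 25 to 33 of the 33 named calls. The cause was not tested. A lone array left in an arm is assumed to vary like the others.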

Other observations

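Gene groups not described above differed in smaller numbers. Over all genes the share past 2-fold was 1.77% each way. Among 32 measured genes of sterol and fatty acid synthesis 0 were higher and 2 lower (6.25%) by 2-fold or more. They were the isopentenyl isomerase IDI1, at 9.09 and 7.89 on the control and shRNA-3 arrays, and the sterol oxidase MSMO1, at 9.96 and 8.92. The other probes of MSMO1 gave -1.47 and -0.04. INSIG1, which retains the sterol sensor in the endoplasmic reticulum, stood at 11.15 and 10.16, and its effect differed from the one in MDA-MB-231, with an interaction of -3.08 (limma adjusted p = 0.000861). Among 34 lysosomal genes 2 were higher (5.88%) and 1 lower (2.94%). The peptidase TPP1, at 7.81 and 9.03, and the cathepsin CTSF, at 7.63 and 8.83, were higher. The cathepsin CTSC was lower, at 8.04 and 6.98. Among 23 CDK inhibitors and p53 targets 0 were higher and 3 lower (13%). The list did not lean lower as a whole: 14 of the 23 were higher in any amount, against 52.7% of all genes, with a median of 0.21. The 3 lower by 2-fold or more were SESN1 at 8.94 and 7.78, AEN at 8.44 and 7.33 and TIGAR at 7.53 and 6.49. Under median scaling 0 sterol genes were lower, 6 lysosomal genes were higher and 0 lower, and 2 of the p53 list were higher and 0 lower. Among 30 immediate-early genes the ERK phosphatase DUSP6 was the 1 past 2-fold, at 9.0 and 7.56, while it rose by 1.03 in MDA-MB-231 (limma interaction -2.47, adjusted p = 0.00136).

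Single members stood out in other lists, and a share of 1 member says nothing of its list. CDH2, the mesenchymal N-cadherin, stood at 6.54 and 8.14, the 1 gene past 2-fold among 33 epithelial junction and keratin genes. THBS1, a matrix protein that activates TGF-beta, stood at 8.71 and 10.31. HK2, a hexokinase, stood at 9.34 and 10.57 and was the 1 past 2-fold among 39 genes of hypoxia and glycolysis. H2BC11 and H2AC4, histone genes of chromosome 6, stood at 8.49 and 7.19 and at 5.12 and 6.21, on opposite sides. Of 64 oxidative phosphorylation genes 0 were past 2-fold and 42 were lower in any amount, against 5697 of all 12053 genes. The list's median was -0.137, and 0.10 under median scaling. Between MDA-MB-231 replicates it was 0.103 in the shRNA-1 arm and 0.333 in the control arm, where the label did not differ.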
